A study of Mus musculus with 10 samples.

Results

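Guanylate-binding proteins and immunity-related GTPases are the large GTPases that cells make in quantity when they meet interferon gamma. A set of 10 genes of these families, chosen by symbol, was followed here in the mouse aorta, out of 55453 symbols in the table. The members were the guanylate-binding protein genes Gbp2, Gbp3, Gbp4, Gbp5, Gbp6 and Gbp7 and the immunity-related GTPase genes Irgm1, Irgm2, Igtp and Iigp1. All 10 were in the table and all 10 passed the filter on low counts, as did 14614 symbols in all. The tissue came from male mice of the C57BL/6 strain, 5 young at 14.5 weeks and 5 old at 92.5 weeks, and the aortic RNA of each mouse gave 1 stranded poly(A) library. The mice carried no transgene and received no treatment in the labels or methods used here, were perfused with saline, and had the fat around the vessel removed. The libraries held 19640401 to 22886153 counts each. Smooth muscle markers summed to between 740029 and 949962 normalized counts per library, so that each library carried the RNA of the labelled tissue. The share of counts on mitochondrial genes was 11.0% in the second old library, written old 2 below, against 4.50% to 6.51% in the others. In bulk tissue, a change in the number of cells of a type and a change in RNA per cell cannot be told apart.

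Interferon gamma binds a receptor made of Ifngr1 and Ifngr2, the kinases Jak1 and Jak2 pass the signal on, and the induced transcription factor Irf1 takes part in switching on the GTPase genes. The guanylate-binding proteins assemble on the membranes around intracellular bacteria and parasites and on the bacteria themselves, and help to bring on inflammasome signalling. Among the immunity-related GTPases, Iigp1 (Irga6) is an effector that coats the vacuoles of parasites, while Irgm1, Irgm2 and Igtp (Irgm3) are regulators that sit on the membranes of the cell itself and hold the effectors in check. Endothelial cells, smooth muscle cells and macrophages of the vessel wall are all able to respond to the cytokine.

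The members lie in a few clusters on GRCm38. Gbp5 (chr3:142493978-142522344), Gbp7 (chr3:142530342-142550149), Gbp3 (chr3:142560026-142573209) and Gbp2 (chr3:142620602-142638008) lie in 1 cluster on the plus strand of chromosome 3, whereas Gbp4 (chr5:105115767-105139586) and Gbp6 (chr5:105270702-105293698) lie on the minus strand of chromosome 5. The annotated genes Igtp and Irgm2 overlap on the plus strand of chromosome 11. Irgm1 lies on the same chromosome, and Iigp1 stands apart from these clusters. RefSeq promoters on GRCm38.p6 matched 7 of the 10 members, and those of Gbp4, Gbp6 and Iigp1 were not used here. The 250 bases before each start were searched on both strands for GAAA followed by any 2 bases and GAAA again, the core of the element that interferon regulatory factors and the type I complex bind, and for TTCNNNGAA, the core of the gamma-activated sequence. All 7 members held the first motif in a promoter, and it occurred in 2.98% of 32851 promoters and in a promoter of 3.46% of 27025 genes. Another RefSeq promoter of Gbp3 held neither motif. The second motif was found in 4 of the 7, namely Gbp5, Gbp7, Irgm2 and Igtp, against 7.02% of promoters and 8.13% of genes, and no copy of it overlapped a copy of the first. A match describes letters in a window and does not show binding.

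The windows around the first motif are shown because it is the sequence feature that these members share. They are written 5′ to 3′ along each gene, with the GAAA pair and the 2 bases between, or their reverse complement, in capitals, and capitals in Gbp3 and Irgm1 span 2 overlapping copies. The windows are chr3:142620594-142620623 for Gbp2, chr3:142559992-142560021 for Gbp3, chr3:142496744-142496803 for Gbp5, chr3:142530258-142530317 for Gbp7, chr11:48871428-48871457 on the minus strand for Irgm1, chr11:58214888-58214947 for Irgm2 and chr11:58199496-58199555 for Igtp.
Gbp2: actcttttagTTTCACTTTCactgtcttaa
Gbp3: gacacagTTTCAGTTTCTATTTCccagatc
Gbp5: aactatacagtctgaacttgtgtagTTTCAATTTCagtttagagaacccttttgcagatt
Gbp7: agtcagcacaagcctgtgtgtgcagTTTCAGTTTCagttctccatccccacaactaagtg
Irgm1: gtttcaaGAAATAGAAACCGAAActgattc
Irgm2: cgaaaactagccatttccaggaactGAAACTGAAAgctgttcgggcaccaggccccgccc
Igtp: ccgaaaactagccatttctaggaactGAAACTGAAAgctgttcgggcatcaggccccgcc
The motif centre lay 160 bases before the RefSeq start in Gbp5 and between 19 and 59 bases before it in the other 6 genes. The gene positions above come from GENCODE, whose starts can differ. The windows of Gbp5, Irgm1 and Irgm2 lie inside the GENCODE genes, and those of Gbp2 and Irgm1 overlap an exon of their own gene. Igtp and Irgm2 were nearly identical here, with 3 of 84 compared bases that differed.

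Whether the GTPase genes differed between young and old aortae was asked with edgeR's quasi-likelihood test over all 14614 genes, and a gene was called at a Benjamini-Hochberg adjusted p under 0.05. None of the 10 members was called higher or lower in old aortae, while 11.5% of all tested genes were called, 6.48% higher and 4.99% lower. By unadjusted p under 0.05 there was 1 member, Irgm1, against 26.7% of all genes. DESeq2 and limma-voom each called that same member, where they called 13.6% and 11.3% of genes, with 7.24% and 6.45% of all genes called higher. All 10 members had a higher fitted mean in old aortae, as had 50.8% of all genes, and the members' median log2 fold change was 0.20 against 0.0034 for all genes. The values of young and old mice overlapped in all 10 members, as the plot of the values in every mouse shows, whereas 9.92% of all tested genes had groups that did not overlap. In most members the mice of 1 age group differed widely from each other.

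**Figure D1:**
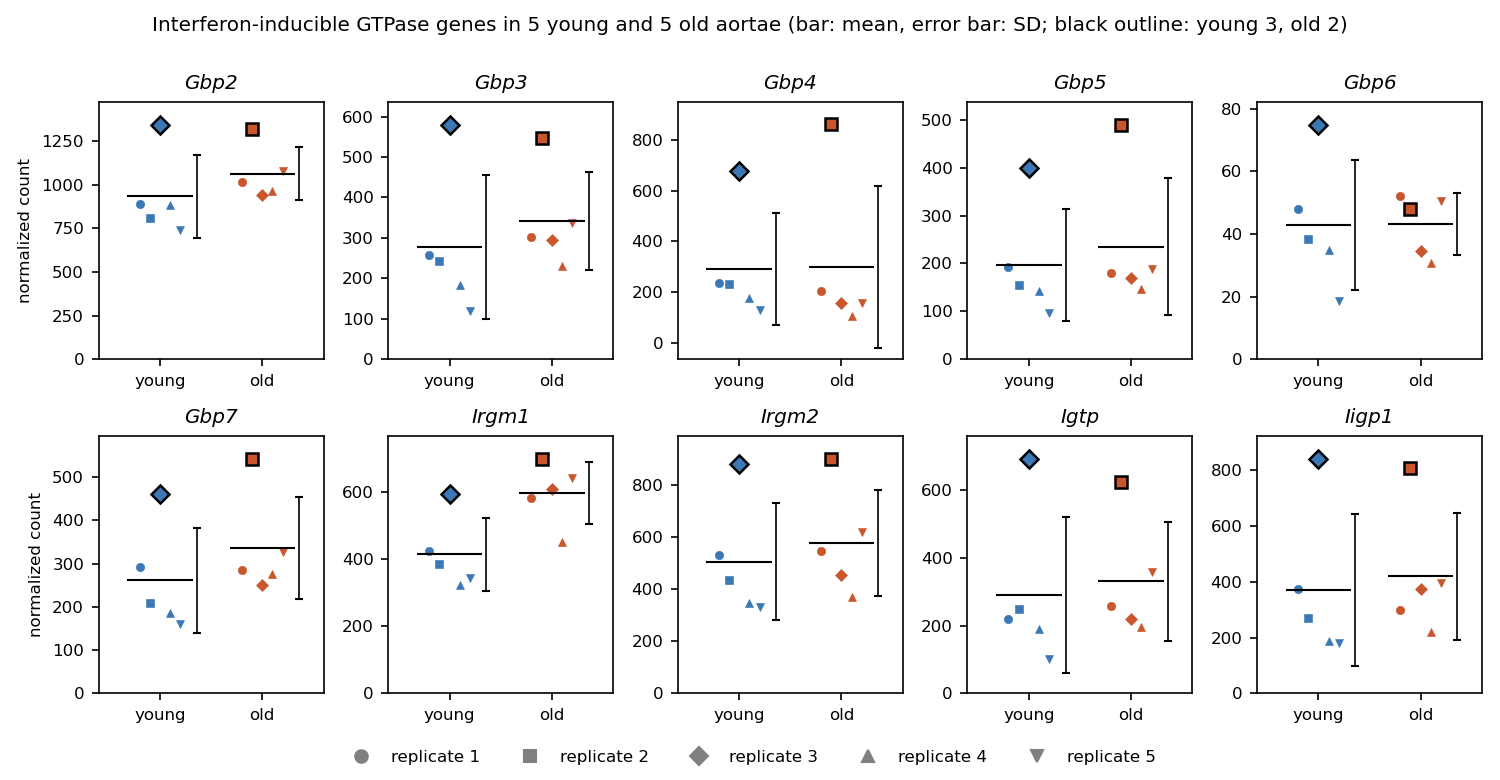
Normalized counts (vertical axis, linear) of the 10 GTPase genes in 5 young (blue) and 5 old (orange) aortae, 1 point per mouse, with the mean as a bar and the SD as an error bar. Black outlines mark young 3, the highest young library in 10 of 10 genes, and old 2, the highest old library in 9 of 10, and the groups overlap in every panel.

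Levels are given as normalized counts, that is, counts divided by the library's DESeq2 size factor, in the order young 1 to 5 and then old 1 to 5. Gbp2, a prenylated protein that is recruited to pathogen-containing vacuoles, had 891, 807, 1343, 886 and 742 in young aortae and 1016, 1321, 942, 962 and 1082 in old ones. Young 3 and old 2 were the highest of their groups, and the other 4 old libraries lay above the other 4 young ones. The edgeR log2 fold change was 0.20 ± 0.16 (SE), with an adjusted p of 0.469. Leaving out young 3 alone gave a log2 fold change of 0.36 and an edgeR adjusted p of 0.0416, a call that rests on a library left out for its own high value. Leaving out old 2 or young 5 alone lowered the log2 fold change to 0.10 and 0.12. Gbp3, from the same cluster as Gbp2, had 259, 243, 579, 184 and 120 against 303, 548, 295, 231 and 337, a log2 fold change of 0.31 ± 0.40 (SE). Its young values spanned 4.83-fold, so the difference between ages was within the spread between mice, and the log2 fold change was 0.075 without old 2 and 0.77 without young 3. Gbp5, which promotes inflammasome assembly, had 192, 155, 399, 142 and 97.3 against 181, 489, 171, 147 and 189, a log2 fold change of 0.26 ± 0.45 (SE). The same pair of libraries again stood above the rest, and the other old values lay inside the range of the young ones. Without old 2 the log2 fold change of Gbp5 was -0.20, and without young 3 it was 0.68.

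Gbp7 had 293, 208, 461, 185 and 160 in young aortae and 286, 542, 251, 277 and 327 in old ones, a log2 fold change of 0.37 ± 0.31 (SE) with an edgeR adjusted p of 0.510. It was 0.13 without old 2 and 0.67 without young 3. Of its exonic sequence, 11.3% is overlapped by the annotated gene Gm43802, which had no count in any library. Gbp4 was the most variable member, with 236, 233, 679, 178 and 129 in young aortae and 203, 864, 158, 108 and 158 in old ones. Old 2 was 8.00 times the lowest old library, and the remaining old values, from 108 to 203, lay among or below the lower young ones. The means were 291 ± 221 (SD, n = 5) and 298 ± 318 (SD, n = 5), and the 95% interval of the log2 fold change ran from -1.48 to 1.55. Without old 2 the log2 fold change of Gbp4 was -0.89, and without young 3 it was 0.62, so that its direction was set by single libraries. Gbp6 was the scarcest member, with 48.0, 38.2, 74.8, 34.8 and 18.4 against 52.0, 47.9, 34.5, 30.9 and 50.6. It was the only member in which old 2 was not the highest old library. Its counts are uncertain as a reading of 1 gene, because 70.7% of its 50-base windows also occur in transcripts of other genes, mostly the overlapping Gm43302, which had no count in any library.

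Of the regulators, Irgm1, which is also needed for mitochondrial quality control and for holding interferon responses in check, had 424, 385, 595, 323 and 343 in young aortae and 582, 698, 609, 451 and 644 in old ones. Young 3 lay among the old values and old 4 near the upper young ones, and the other libraries separated by age. The means were 414 ± 108 (SD, n = 5) and 597 ± 92.3 (SD, n = 5), a fold of 1.45 with a 95% interval of 1.13 to 1.86. The log2 fold change of 0.53 ± 0.17 (SE) had an unadjusted p of 0.00767 and an adjusted p of 0.0600 by edgeR, 0.0162 by DESeq2 and 0.0457 by limma-voom, so that the tools differed on the call. Over 19 alternative settings its log2 fold change lay between 0.46 and 0.70, and it was called in 6 of them. The edgeR adjusted p was 0.00462 without young 3 and 0.0331 without old 4, and it lay between 0.0799 and 0.134 when any other single library was left out.

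Irgm2 had 530, 434, 879, 346 and 331 against 546, 897, 452, 369 and 617, a log2 fold change of 0.20 ± 0.32 (SE). Igtp had 220, 248, 690, 188 and 102 against 257, 622, 219, 195 and 358, a log2 fold change of 0.19 ± 0.52 (SE), and its young values spanned 6.73-fold, the widest young range of the members. The annotated genes Irgm2 and Igtp overlap on the same strand, over 4.39% and 8.01% of their exonic sequence. Of their 50-base windows, 7.83% and 11.8% are found in other genes, mostly each other, so that reads there cannot be assigned to 1 of them. The effector Iigp1 had 373, 271, 840, 187 and 182 against 300, 809, 374, 219 and 396, a log2 fold change of 0.18 ± 0.50 (SE). In all 3 genes young 3 and old 2 were the highest and young 5 and old 4 the lowest of their groups, and the edgeR adjusted p lay between 0.747 and 0.860. Without old 2 the log2 fold change turned to -0.021 for Irgm2, -0.17 for Igtp and -0.20 for Iigp1, and without young 3 it was 0.50, 0.80 and 0.73.

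**Figure D2:**
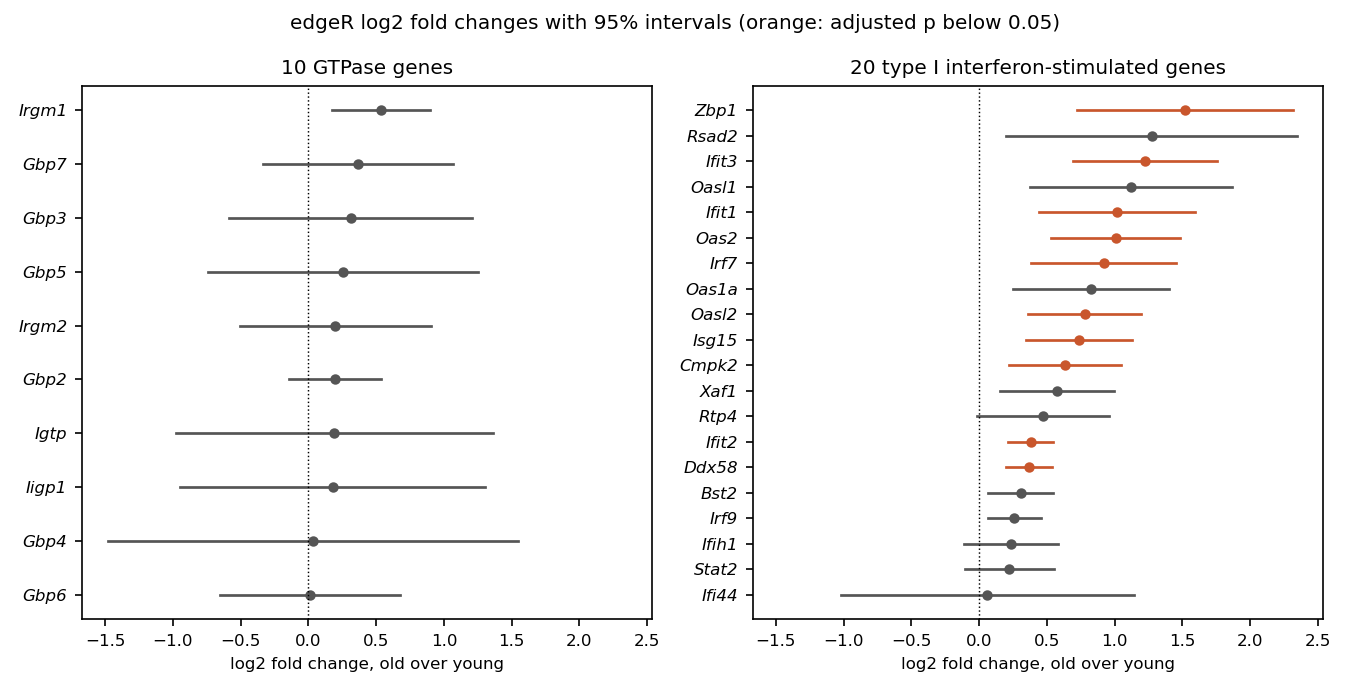
Log2 fold changes of old over young aortae (horizontal axis) with 95% intervals from edgeR for the 10 GTPase genes (left) and 20 tested type I interferon-stimulated genes (right), with genes of adjusted p under 0.05 in orange. No GTPase gene and 10 of the 20 others passed the test, and the interval of Gbp4 runs from -1.48 to 1.55.

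The spread between mice was large for genes of this abundance. The biological coefficient of variation that edgeR fitted, which is the spread between mice of 1 group beyond counting error, had a median of 38.6% over the members. It was 11.4% over all tested genes and 10.4% over the 8231 genes with a mean of 100 to 1500 normalized counts. Gbp6 lay below that band. The members ran from 17.3% for Gbp2 and 18.2% for Irgm1 to 55.4% for Igtp and 70.2% for Gbp4. The least variable members were thus the abundant Gbp2 and the regulator Irgm1, whose intervals were also the narrowest.

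The members moved together from mouse to mouse. Summed over the 10 genes, the normalized counts were 3467, 3022, 6540, 2656 and 2225 in young aortae and 3724, 6838, 3503, 2990 and 4158 in old ones. Young 3 was the highest young library in 10 of 10 members and old 2 the highest old library in 9 of 10. Both held for 9 of 10 members, against 3.82% of all tested genes. Young 5 was the lowest young library in 9 of 10 and old 4 the lowest old library in 8 of 10, where 19.0% and 15.5% of all genes had that pattern. On the log2 scale the members lay on average 1.08 above their group mean in young 3 and 0.83 above it in old 2, and 0.74 and 0.52 below it in young 5 and old 4. The heat map of deviations shows the pattern gene by gene. These libraries were picked out by the members' own values, and the shares are a description of 10 genes that may share regulation, with no test.

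**Figure D3:**
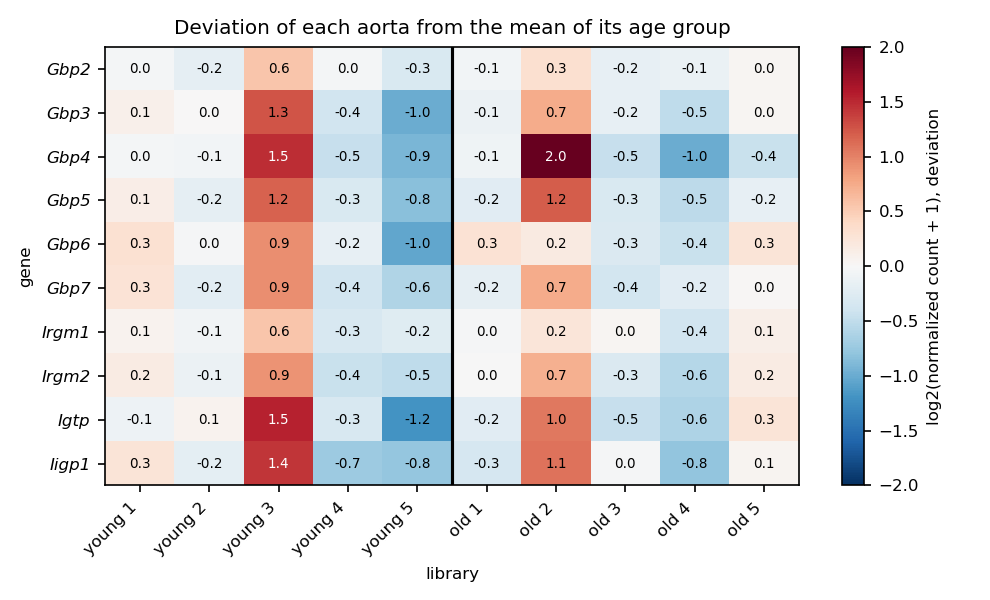
Deviation of log2(normalized count + 1) from the mean of the mouse's own age group (colour, in log2 units, with the value in each cell) for 10 genes (rows) in 10 libraries (columns). Young 3 and old 2 are red in almost all rows, with averages of 1.08 and 0.83, and young 5 and old 4 are blue.

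Leaving out young 3 and old 2 together, a setting chosen after their values were seen, gave 2 members called higher by edgeR, Gbp2 and Irgm1, where 5.54% of all genes were called higher. Gbp2 then had a log2 fold change of 0.27 with an adjusted p of 0.0492, and Irgm1 had 0.64 with an adjusted p of 0.00843. The median log2 fold change of the members was 0.32 in that setting. With all libraries but old 2 it was -0.026, and with all but young 3 it was 0.68, so the single libraries moved it in opposite directions.

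Levels of different members were compared per kilobase of exonic sequence. That length joined the exons of all annotated transcripts of a gene. Which transcripts were expressed was not tested, so the order depends on the annotation. Gbp2 was the highest with 371 ± 94.1 normalized counts per kilobase (SD, n = 5) in young aortae, followed by Igtp with 143 ± 114 and Irgm2 with 137 ± 60.8. Then came Gbp3 with 84.8, Irgm1 with 71.3, Iigp1 with 63.6, Gbp7 with 46.6, Gbp4 with 38.8, Gbp5 with 29.7 and Gbp6 with 7.20. The last place of Gbp6 is uncertain, since how reads on the sequence it shares with other genes were counted is not given. The order by group mean was the same in old aortae, where Gbp2 had 423 ± 60.8. Igtp exceeded Irgm2 in 2 of 5 young libraries, so this pair did not differ beyond the spread. Gbp2 lay above Igtp, Irgm2 above Gbp3, Gbp4 above Gbp5 and Gbp5 above Gbp6 in 5 of 5 young libraries, and every other neighbour in the order held in 4 of 5.

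In the other genes of the GTPase families, young 3 and old 2 were again often the highest libraries. Of 18 relatives, 14 were tested and 1 was called higher, near the 6.48% over all genes, with a median log2 fold change of 0.31, while Gbp2b, Gbp10, Gbp11 and Irgc1 were below the filter. The called gene was Mx2, a dynamin-like antiviral GTPase of type I interferon responses that the annotation lists as a polymorphic pseudogene. It had 26.7 ± 5.35 (SD, n = 5) normalized counts in young and 51.1 ± 9.10 (SD, n = 5) in old aortae. For it edgeR gave a log2 fold change of 0.94 ± 0.20 (SE) with an adjusted p of 0.0101, and its groups did not overlap. Its paralog Mx1 had 0.72 ± 0.42 (SE) and was not called. Young 3 and old 2 were both the highest of their groups in 10 of these 14 genes. Ifi47 (Irgd), with a log2 fold change of 0.51, and Gm4951, with 0.59, were not called with all libraries, and they were called without young 3, at edgeR adjusted p of 0.0225 and 0.0494, and Ifi47 also without young 3 and old 2 together. The immunity-related GTPases Tgtp1 and Tgtp2 had 0.40 and 0.09, but they share 81.2% and 86.6% of their windows with other genes, mostly each other, and cannot be read separately. Gm12250 (Irgb10) had 0.44 and F830016B08Rik 0.25. The guanylate-binding genes Gbp8 and Gbp9 had 0.11 and -0.07, the autophagy receptor gene Irgq had -0.09, and Gvin1, whose windows nearly all occur elsewhere, had -0.02. The pair 9930111J21Rik1 and 9930111J21Rik2 had 0.37 and 0.19 and also share most of their sequence. Outside the members, the 5 genes whose profile was most like the members' mean, after the group means were removed, were Tgtp2, Ifi47, H2-Q4, Gbp9 and Ly6e. Their Pearson coefficients lay between 0.928 and 0.990 over the 10 libraries, and between 0.706 and 0.969 without young 3 and old 2, as a description of libraries that share depth and tissue.

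The transcript of the cytokine itself was almost absent. Ifng had 1 count in old 3 and 0 in the other 9 libraries, where a count of 0 allows up to 3 counts, or 0.131 to 0.153 CPM depending on the library. Of the 10 genes of the ligand, receptor and signalling list, 9 were tested and none was called by edgeR, with 2 at an unadjusted p under 0.05, 2 called by DESeq2 and 1 by limma-voom. Over all genes, edgeR called 11.5%, DESeq2 13.6% and limma-voom 11.3%, and 26.7% had an unadjusted edgeR p under 0.05. The log2 fold change was -0.13 for Ifngr1 and 0.17 for Ifngr2, the receptor chains, with edgeR adjusted p of 0.199 and 0.360. It was 0.10 for Jak1 and 0.04 for Jak2. The 95% limits of these genes were narrow beside those of most GTPases, as the SE was 0.05 to 0.11. Irf1 had 586 ± 127 (SD, n = 5) in young and 799 ± 98.9 (SD, n = 5) in old aortae, and its log2 fold change was 0.46 ± 0.14 (SE). Its adjusted p was 0.0512 by edgeR, 0.0171 by DESeq2 and 0.0394 by limma-voom. By edgeR it was 0.0118 without young 1 and 0.0389 without young 3. Irf1 was called in 4 of 19 alternatives, and its edgeR adjusted p reached 0.123 without young 2. Ifngr2 was called without old 2, with a log2 fold change of 0.26 and an edgeR adjusted p of 0.0382. That library was picked out by the members' values. Ifngr2 was called in 2 of 19 alternatives, and its edgeR adjusted p reached 0.573 without young 4. None of 7 negative regulators was called by edgeR, with 2 at an unadjusted p under 0.05, 1 by DESeq2 and 0 by limma-voom, and the feedback inhibitor Socs1 had 0.23 ± 0.26 (SE). Beside the shares over all genes, the counts in these 2 short lists say nothing particular about them.

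Among other interferon targets, edgeR with all libraries gave frequent calls in the type I list and not in the interferon gamma list, a contrast that depended on the tool. Of 28 other interferon gamma targets, such as antigen-presentation genes and chemokines, 25 were tested and 1 was called higher by edgeR, where 6.48% of all tested genes were, with a median log2 fold change of 0.35. The called gene was Fcgr1, the high-affinity IgG receptor of macrophages, which is also among the macrophage markers below, with a log2 fold change of 0.98 ± 0.23 (SE) and an edgeR adjusted p of 0.0142. By unadjusted p under 0.05 from edgeR there were 11 of the 25, against 26.7% of all genes. DESeq2 called 7 higher and 1 lower, where it called 13.6% of all genes, limma-voom 2 higher, and edgeR without young 3 called 10. With DESeq2, calls were thus frequent in both lists, with 13 higher in the type I list. Of 21 type I interferon-stimulated genes, 20 were tested, all 20 had a higher fitted mean in old aortae, and 10 were called higher, with a median log2 fold change of 0.69. The 4 with the smallest p were Ifit2, Ifit3, Ddx58 and Oas2, which belong to the antiviral response to foreign RNA. Ifit3 had 190 ± 72.5 (SD, n = 5) in young and 443 ± 86.0 (SD, n = 5) in old aortae. For this gene edgeR gave a log2 fold change of 1.23 ± 0.24 (SE) and an adjusted p of 0.00873. Young 3 and old 2 were both the highest of their groups in 7 of the 20. The count of calls in this list was 5 to 13 when single libraries were left out, lowest without young 4 and highest without young 3 and without old 4. The difference between this list and the members was not tested. The first promoter motif was found in 8 of 18 of these genes and in 2 of 18 other interferon gamma targets.

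Genes that load the GTPases onto membranes or act after them were tested in 18 of 19 cases, and 2 were called higher, against 6.48% of all genes, so that the count says nothing particular about this list. Casp4, which encodes the caspase (caspase-11 in the mouse) that senses bacterial lipopolysaccharide released with the help of guanylate-binding proteins, had 187 ± 41.4 (SD, n = 5) in young and 349 ± 61.5 (SD, n = 5) in old aortae. Its log2 fold change was 0.91 ± 0.16 (SE) with an edgeR adjusted p of 0.00271, it was called in all 19 alternatives, and its groups did not overlap. Gsdmd, the pore-forming protein that this caspase cleaves, had a log2 fold change of 0.39 ± 0.11 (SE) with an edgeR adjusted p of 0.0356, and it was called in 11 of 19 alternatives, with adjusted p up to 0.0925 when young 4 was left out. The other 16 tested genes, among them the autophagy genes whose products help to place these GTPases on membranes, were not called.

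Markers of other cells moved with age and, in part, with the same libraries. Calls in these lists are by edgeR unless another tool is named. Of all tested genes, 6.48% were called higher and 4.99% lower, and 50.8% had a higher fitted mean in old aortae. Pan-leukocyte markers, of which 3 of 6 were called higher, summed to 885 to 1374 normalized counts in young and 1441 to 3306 in old aortae. Macrophage markers, of which 7 of 12 were called higher, summed to 7056 to 9141 and 9534 to 17471. The highest old library was old 3 for both lists, in which the members lay on average 0.24 below their group mean on the log2 scale, and young 3 was the lowest young library for the macrophage list but the highest for the pan-leukocyte one. T and NK cell markers, of which 3 of 15 were tested and 2 called higher, summed to 21.1 to 80.8 in young and 66.0 to 240 in old aortae, and 13 of the 15 were at 0 in some library. B cell markers, with 0 of 3 tested genes called by edgeR, summed to 17.1 to 111 and 48.6 to 443. Endothelial markers, of which 1 of 8 was called lower and all 8 had a lower fitted mean in old aortae, summed to 20551 to 35347 and 10535 to 24102. DESeq2 called 5 of these 8 lower and limma-voom 3, and 6 had an unadjusted p under 0.05 by edgeR. Young 3 and old 2 were the highest libraries of their groups in the endothelial sum, with 35347 against 29357 for the next young library and 24102 against 17023 for the next old one. They were also the highest in the type I interferon-stimulated sum, with 4792 and 6780, and in the relatives' sum, with 2769 and 2626. In the sum of other interferon gamma targets, young 3 and old 3 were the highest. Fibroblast markers, of which 1 of 7 was called higher and 3 lower, summed to 190316 to 231187 and 130146 to 187988, and young 3 and old 2 were the lowest of their groups. Old 2 was also the lowest old library in the smooth muscle sum, with 740029, and the highest in the adipocyte sum, with 9381, where 1 of 8 and 0 of 6 genes were called by edgeR and young 3 was neither lowest nor highest. For the adipocyte genes 3 had an unadjusted p under 0.05, and DESeq2 called 1 and limma-voom 0. Old 2 was also the library with the highest mitochondrial share, whereas young 3 had 6.22%. The part that these cells and this share have in the members' values was not tested. None of the pan-leukocyte, macrophage and endothelial markers was at 0 in any library.

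**Figure D4:**
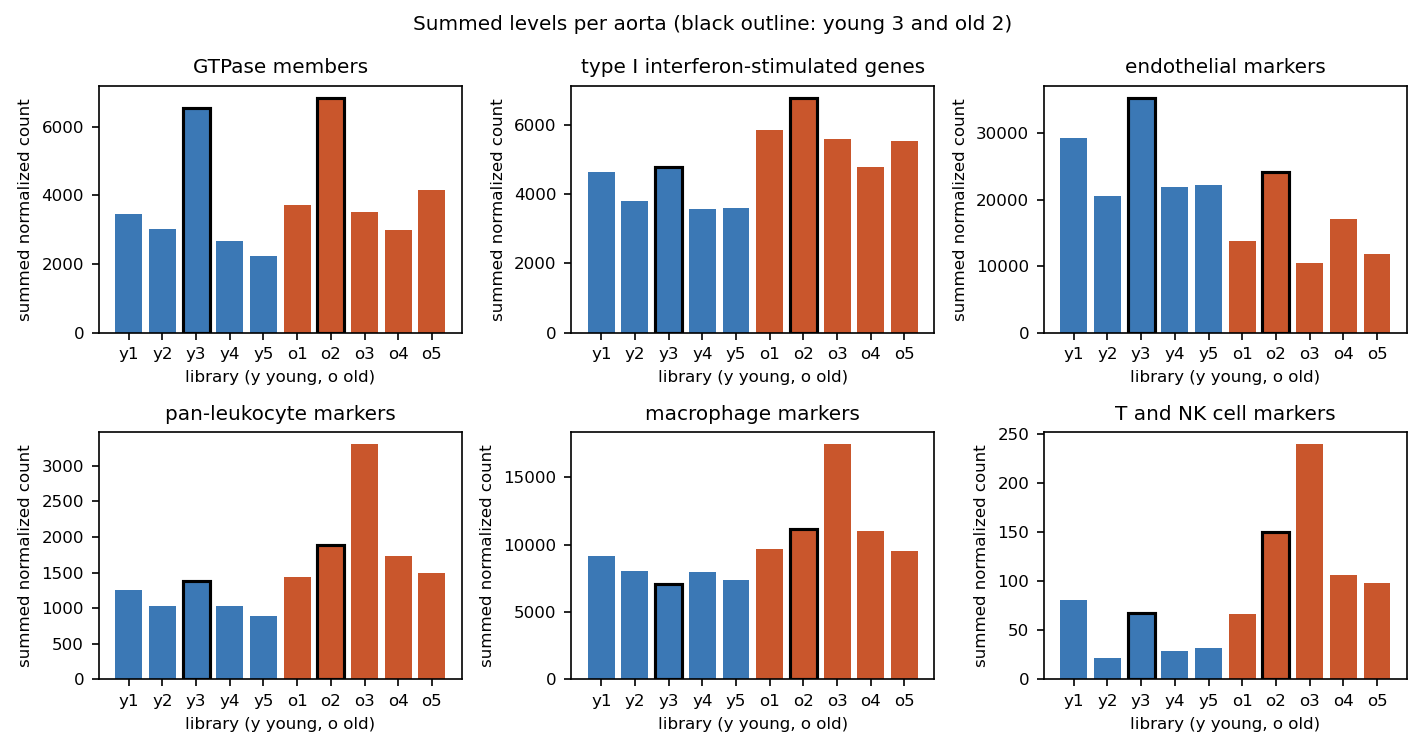
Summed normalized counts (vertical axes from 0, linear) of the 10 GTPase genes and of 5 gene lists in each library (bars, blue young, orange old), with young 3 and old 2 outlined in black. Within the age groups, the GTPase sum is highest in young 3 (6540) and old 2 (6838). So are the type I interferon-stimulated sum (4792 and 6780) and the endothelial sum (35347 and 24102). The macrophage and pan-leukocyte sums are highest in old 3 among old libraries (17471 and 3306).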

How the data were processed

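Aortic RNA of 10 mice was analysed, 1 library each. The deposited table holds raw counts per gene symbol, which the authors made by trimming with fastp 0.20.0 (reads under 35 bases removed), alignment with STAR 2.7.0f to GRCm38 with GENCODE M22, and counting with featureCounts of Subread 1.6.4. The strand setting and the handling of reads with several alignments were not given in the sources used here. The authors' own test results were not used.

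Counts were tested as deposited with the quasi-likelihood test of edgeR 4.0.16 in R 4.3.3, old against young, after filterByExpr and TMM scaling, with Benjamini-Hochberg adjustment over 14614 genes and a threshold of 0.05. Adjusted p-values come from that model unless DESeq2 1.42.0 or limma-voom (limma 3.58.1) is named. Normalized counts are counts divided by DESeq2 size factors, and log2 values shown per library use a pseudocount of 1. The script was tested on simulated data with known changes. Positions, exonic lengths and 50-base windows shared with other transcripts came from GENCODE M21 on GRCm38, and promoters from RefSeq on GRCm38.p6. Library totals were 19640401 to 22886153 counts. The intervals and the limit for a count of 0 are at 95% and 3 counts, and the latter covers counting error only.

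The members and gene lists were chosen with earlier results of these data known. All members and tested relatives were named, with fixed signalling genes, up to 4 called genes per other list by smallest p, and the 5 most alike genes by Pearson correlation. Alternatives were other tools, scalings, filters, a threshold of 0.01, the replicate number as a block, and each library left out. The values of 1 named gene of the signalling list are not reported here.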

Additional observations from a re-analysis of the deposited data

Results flagged for a closer look

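With 5 libraries a group, each member's highest and lowest normalized count was compared with its nearest neighbour by Dixon's ratio. In 6 of 20 groups a value stood apart. About 1 in 20 is the share for normally distributed values. The counts were compared on the linear scale, where right-skewed values pass more often, so no excess over chance is read from the 6 groups. The groups are not independent, since the same mice recur. Young 3 stood above the other young libraries in Gbp2 with 1343 normalized counts, in Gbp4 with 679 and in Igtp with 690. Old 2 stood above the other old libraries in Gbp4 with 864, in Gbp5 with 489 and in Gbp7 with 542. The sum over the 10 members stood apart in the young group too, with 6540 normalized counts in young 3 against 3467 in the next young library. In the old group the sum of 6838 in old 2 was followed by 4158.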

How the results depend on the processing

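No member was called lower under any of the alternatives run. The count called higher was 1 with DESeq2, limma-voom and the replicate block, 2 without young 3 and old 2 together (added after the values were seen), 0 to 2 when single libraries were left out, and 0 under the other scalings, the other filters and the threshold of 0.01. Replicate numbers did not pair the mice, with correlations of same-numbered deviations between -0.38 and 0.09 over 10996 genes. With the replicate number as a block, 1261 genes were called, the members' median log2 fold change was 0.27, and Irgm1 was called with 0.55. Single-library exclusions gave 1132 to 2367 genes called, a members' median of -0.026 to 0.68, and log2 fold changes of 0.10 to 0.36 for Gbp2, 0.075 to 0.77 for Gbp3, 0.13 to 0.67 for Gbp7, -0.89 to 0.62 for Gbp4, -0.20 to 0.68 for Gbp5, -0.18 to 0.31 for Gbp6, -0.021 to 0.50 for Irgm2, -0.17 to 0.80 for Igtp and -0.20 to 0.73 for Iigp1. Among relatives the same exclusions gave -0.065 to 0.65 for Gbp8, -0.31 to 0.30 for Gbp9, -0.092 to 1.46 for Gm12250, -0.49 to 0.47 for Gvin1, -0.41 to 1.04 for Tgtp1 and -0.58 to 0.82 for Tgtp2. The sign also turned for genes near 0 with limma-voom (Gbp4 -0.21, Gbp9 0.0078), upper-quartile factors (Gvin1 0.0061), library size alone (Gvin1 0.0028), the block (Gbp4 -0.16, Gbp9 0.016) and without young 3 and old 2 (Gbp4 -0.30, Gbp9 0.058, Gvin1 0.0085), and the cause was not tested. No other alternative turned the sign of a member, relative or signalling gene named in the report.

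Counts of calls in the lists moved as follows. Ligand, receptor and signalling genes had 2 with DESeq2, 1 with limma-voom, 1 without young 3 and old 2, and 0 to 1 without single libraries. Negative regulators had 1 with DESeq2, upper-quartile factors, library size alone and the block, and 0 to 1 without single libraries. Other interferon gamma targets had 8 with DESeq2 and the block, 7 without young 3 and old 2, 2 with limma-voom, DESeq2 size factors, upper-quartile factors and no filter, 1 to 10 without single libraries and 0 at 0.01. Relatives had 2 without young 3 and old 2, 1 to 3 without single libraries and 0 at 0.01. Type I genes had 5 to 13 without single libraries and 3 at 0.01. Partner genes had 1 without young 3 and old 2, 1 to 3 without single libraries and 1 at 0.01. At 0.01, 658 genes were called in all. The planned test for members below the low-count filter was not run, since all 10 passed it. The spread between mice limits what 5 libraries a group can show for Gbp4, Igtp and Iigp1, whose intervals span more than 2 log2 units.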
